A study of Mus musculus with 3 samples.

Results

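Tbp, Nono and Rpl13a, 3 genes of the gene expression machinery, were followed across 3 arrays of cultured mouse sensory neurons. They were chosen by name and probe (CUST_7_PI419532418, CUST_11_PI419532418 and CUST_2_PI419532418), and no measured value entered the rule. They are 3 of the 15 genes that the files pair with a RefSeq accession, and each was printed on the array as 20 replicate spots of 1 probe. The cells were primary neurons of the dorsal root ganglia, where the cell bodies of touch and pain fibres lie, from C57BL/6 mice of 5 to 9 days. After 5 days in culture the cells received 1 mM melatonin, or 100 µM 8-M-PDOT, which activates the melatonin receptor MTR1B, or a vehicle of 1% ethanol in saline, each for 24 h. The solvent of the treated cultures is not given in the labels, and the 2 agents were used at different concentrations. Each condition had 1 array, so no test between conditions was possible and no p-value is given. Every SD below is a spread over spots, either of their levels on 1 array or of their ratios between 2 arrays. For differences between genes, the SDs of the 2 genes were combined. Each SD is technical and holds no spread between cultures or animals. The series compared each treated culture with the vehicle culture, and both comparisons use the same vehicle array.

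The 3 genes act at successive steps of gene expression. Tbp encodes the TATA-binding protein, the DNA-binding subunit of the general transcription factor TFIID. The same protein also serves RNA polymerases I and III in other complexes. Nono encodes a nuclear protein of the DBHS family that binds RNA and DNA, pairs with Sfpq and Pspc1 and is a structural component of paraspeckles. Rpl13a encodes a protein of the large ribosomal subunit, and in human cells the protein is also known as part of a complex that silences translation of inflammatory transcripts. Tbp and Rpl13a are widely used as reference genes for normalising quantitative PCR. Fewer cells of a type and less RNA per cell cannot be told apart in such bulk samples.

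The promoters of the 3 genes are shown as background, chosen after their ratios on the 8-M-PDOT array had been seen. Any link between promoter sequence and these ratios was not tested. All 3 genes matched a promoter in the RefSeq table (build GRCm38.p6). Each stretch runs 5′ to 3′ along the gene, from 150 bases before the annotated start to 30 after it. Tbp lies at chr17:15499738-15499917 on the + strand, Nono at chrX:101429501-101429680 on the + strand and Rpl13a at chr7:45128716-45128895 on the - strand. Capitals mark matches on either strand to CCAAT, known as the CCAAT box, or to GGGCGG, known as the GC box.
Tbp: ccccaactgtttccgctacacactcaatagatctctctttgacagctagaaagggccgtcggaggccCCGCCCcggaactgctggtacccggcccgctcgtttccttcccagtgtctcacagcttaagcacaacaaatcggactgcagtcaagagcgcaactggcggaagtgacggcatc
Nono: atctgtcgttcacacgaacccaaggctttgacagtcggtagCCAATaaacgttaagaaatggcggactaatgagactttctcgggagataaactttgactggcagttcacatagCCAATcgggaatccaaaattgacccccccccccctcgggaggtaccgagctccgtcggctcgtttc
Rpl13a: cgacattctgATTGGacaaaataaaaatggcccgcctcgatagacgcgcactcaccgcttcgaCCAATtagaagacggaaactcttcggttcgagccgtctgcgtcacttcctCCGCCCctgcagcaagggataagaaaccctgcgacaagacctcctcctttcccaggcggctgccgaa

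Searches for TATAAA, known as the TATA box, for CCAAT and for GGGCGG ran on both strands in windows of 300 bases, 250 before the start and 50 after it. None of the 3 windows held TATAAA, which was present in 13.6% of 32851 windows of the same length in the table. The Nono window held 2 CCAAT matches along the gene, at bases -109 to -105 and -36 to -32 from the start. The Rpl13a window also held 2, along the gene at -87 to -83 and in reverse at -140 to -136, and the Tbp window held 0. CCAAT was present in 37.4% of all windows. GGGCGG was found in reverse once in the Tbp window, at -83 to -78, and in reverse at 2 places in the Rpl13a window, at -189 to -184 and at -37 to -32, the first of which lies outside the printed stretch. It was present in 35.7% of all windows, and no GGGCGG match overlapped a CCAAT match. A match describes these letters and is not a site of binding. The GC content of the windows was 53.3% for Tbp, 55.7% for Nono and 60.3% for Rpl13a, with a median of 52.7% over all windows.

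The arrays were compared on the processed signal, the brightness of a spot after background subtraction and detrending by the scanner software, in intensity units. The 75th percentile signal of the probes was 454 units with melatonin, 328 with 8-M-PDOT and 477 with vehicle, and each array was scaled by its own. The 8-M-PDOT array was thus 1.45-fold dimmer than the vehicle array at this percentile, a log2 difference of -0.54 that the scaling takes out of every ratio. No spot on any array was saturated. All spots used for the 3 genes were well above background, and the dimmest reading, a Tbp spot on the 8-M-PDOT array, was 7.5 times the brightest negative-control spot of that array. The mouse Gapdh control probe whose name ends in 3 differed from vehicle by -0.29 (log2) with melatonin and -0.20 with 8-M-PDOT. The one ending in 5 differed by -0.21 and -0.29, and the Gapdh study probe by -0.22 and -0.05. RNA integrity was not tested by these values. None of the 21 marker genes listed for neurons, glia, fibroblasts and macrophages is named in the files, so the labelled cell type was not checked here.

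Tbp was close to the vehicle level after melatonin and well below it after 8-M-PDOT. Its 18 usable spots read 1566 to 1777 units (median 1635) with melatonin, 222 to 260 (median 243) with 8-M-PDOT and 1519 to 1646 (median 1586) with vehicle. The 8-M-PDOT spots lay apart from all others, while the melatonin and vehicle spots overlapped. After scaling, the mean log2 level of Tbp relative to the array's 75th percentile averaged -0.44 ± 0.07 in the 8-M-PDOT culture against 1.74 ± 0.03 in the vehicle culture (SD, n = 18 spots). The log2 ratio of 8-M-PDOT to vehicle was -2.18 ± 0.08 (SD over 18 spots), a 4.53-fold lower signal, and single spots gave -2.35 to -2.09. The level on the melatonin array was 1.86 ± 0.05 and its log2 ratio to vehicle 0.12 ± 0.06. All 18 spots were above 0 in that ratio, from 0.01 to 0.22, a difference of 1.09-fold. The software's own error estimate was 10.0% of the signal for each Tbp spot on the melatonin and vehicle arrays. That estimate is for a single spot and cannot be set against a mean over 18 spots. Under 14 alternatives of processing the melatonin ratio ran from 0.05 to 0.33, and it rests on 1 array per condition.

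With the percentile scaling, Nono was at the vehicle level after melatonin and at 0.531 times that level after 8-M-PDOT. Its 20 spots read 6574 to 7305 units (median 6985) with melatonin, 2511 to 2890 (median 2678) with 8-M-PDOT and 6922 to 7717 (median 7455) with vehicle. The 8-M-PDOT spots again lay below all others without overlap. The scaled log2 level was 3.93 ± 0.05 with melatonin, 3.04 ± 0.06 with 8-M-PDOT and 3.95 ± 0.05 with vehicle (SD, n = 20 spots). The log2 ratio to vehicle was -0.91 ± 0.06 with 8-M-PDOT, with spots from -1.04 to -0.78, which is 1.88-fold lower and just short of the 2-fold threshold that the series design names. Without scaling the ratio was -1.45, and with median scaling it was -1.06, both past 2-fold, while quantile normalization gave -0.62. With melatonin the ratio was -0.01 ± 0.06, with 7 spots above 0 and 13 below, and its sign depended on the scaling. This melatonin ratio ran from -0.09 to 0.24 under 14 alternatives of processing.

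Rpl13a was higher than vehicle after 8-M-PDOT, the opposite direction to Tbp and Nono on the same array. Its 20 spots read 11696 to 13731 units (median 12339) with melatonin, 17565 to 20394 (median 18752) with 8-M-PDOT and 11570 to 12927 (median 12225) with vehicle. The 8-M-PDOT spots stood above all others, and the melatonin and vehicle spots overlapped. The scaled log2 level was 4.77 ± 0.06 with melatonin, 5.84 ± 0.06 with 8-M-PDOT and 4.68 ± 0.05 with vehicle (SD, n = 20 spots). The log2 ratio to vehicle was 1.16 ± 0.03 with 8-M-PDOT, or 2.24-fold higher, with no spot of the 20 above 1.22 and none under 2-fold. Before scaling the signal was 1.54-fold higher (log2 ratio 0.62), below the 2-fold threshold, so the call of Rpl13a depended on the arrays being scaled. The alternatives with scaling gave log2 ratios from 1.02 to 1.28, all past 2-fold. With melatonin the ratio was 0.09 ± 0.05, or 1.07-fold, with 19 of 20 spots above 0. This melatonin ratio ran from 0.02 to 0.35 under 14 alternatives of processing, and it rests on 1 array per condition. The RefSeq table lists a pseudogene, Rpl13a-ps1, and whether the probe also binds its transcripts was not tested, since the probe sequence was not used here.

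**Figure D1:**
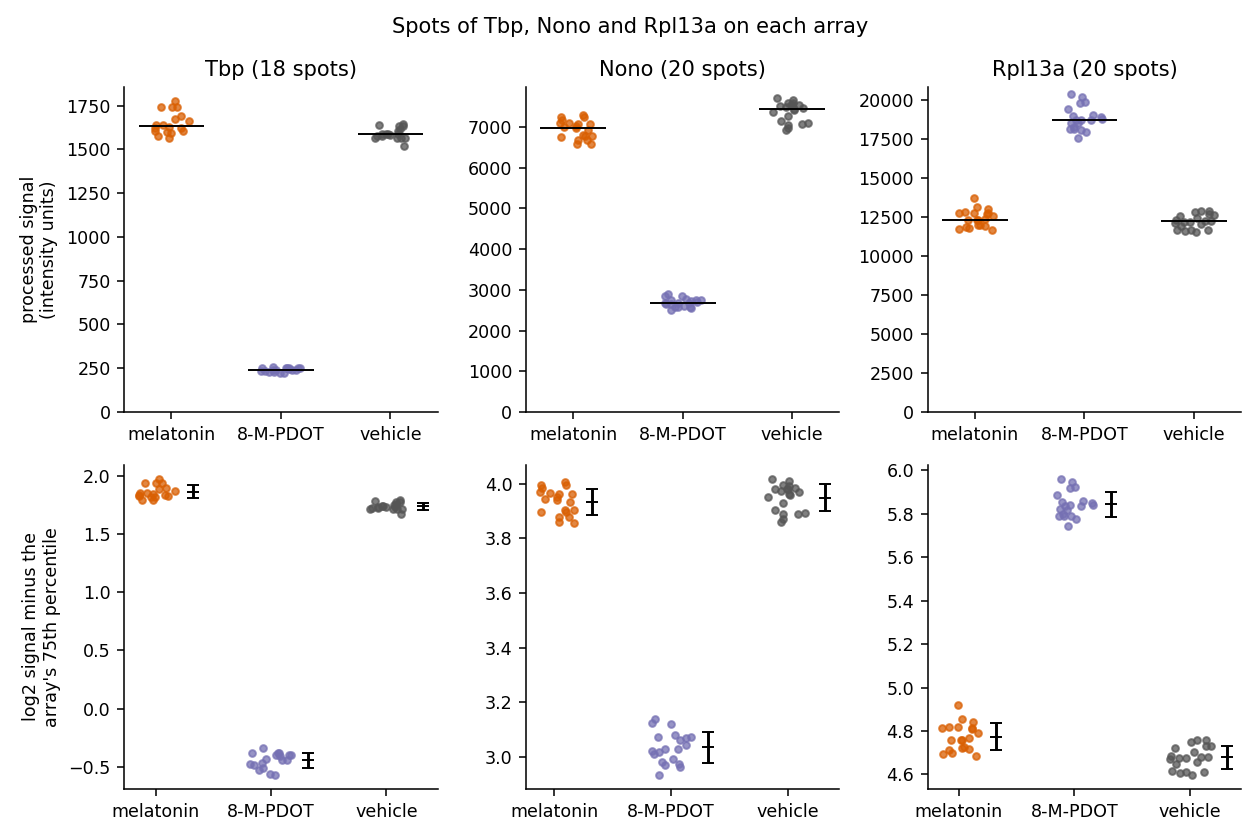
Signal of each spot of Tbp, Nono and Rpl13a on the melatonin, 8-M-PDOT and vehicle arrays. Points are single spots. The upper row shows the processed signal in intensity units from 0 with the median as a line, and the lower row the log2 signal minus the array's 75th percentile, with the mean ± SD over spots beside the points. The 8-M-PDOT spots lie below the vehicle spots for Tbp (222 to 260 against 1519 to 1646 units) and Nono, and above them for Rpl13a.

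The distance between the 3 genes does not depend on any constant scaling of an array. With 8-M-PDOT the log2 ratio of Rpl13a exceeded that of Tbp by 3.34 ± 0.08 (SD over spots, combined), so the signal of Rpl13a relative to Tbp was 10.1 times that on the vehicle array. Rpl13a exceeded Nono by 2.08 ± 0.07 and Nono exceeded Tbp by 1.27 ± 0.10. With melatonin the same 3 differences were -0.03 ± 0.08, 0.11 ± 0.08 and -0.14 ± 0.09. The order of the log2 ratios on the 8-M-PDOT array was therefore Rpl13a, Nono and Tbp, each separated from the next by more than the spread between spots, while on the melatonin array the largest separation was 0.14. These are differences between ratios of a gene to itself, and say nothing of which transcript is the more abundant.

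The replicate spots are scattered over the 384 rows of the array, so the upper and lower rows each give a value of their own. For Tbp with 8-M-PDOT, 9 spots in rows 1 to 192 had a mean log2 ratio of -2.21 ± 0.08 (SD) and 9 in the other rows -2.14 ± 0.06. For Nono, 13 and 7 spots gave -0.93 ± 0.06 and -0.89 ± 0.05, and for Rpl13a, 9 and 11 spots gave 1.17 ± 0.03 and 1.16 ± 0.04. None of these 8-M-PDOT ratios changed sides of the 2-fold threshold between upper and lower rows. With melatonin the ratios were a little higher in the lower rows for all 3 genes, at 0.09 and 0.16 for Tbp, -0.03 and 0.02 for Nono and 0.07 and 0.11 for Rpl13a, upper rows first. The sign for Nono thus differed between upper and lower rows. The software made a multiplicative detrending fit across the slide on the treated arrays and not on the vehicle array, and before it the 8-M-PDOT ratios were -2.13 for Tbp, -0.86 for Nono and 1.21 for Rpl13a. The 2 Tbp spots left out carried an outlier flag on the melatonin array, and with them kept the Tbp ratio was 0.13 with melatonin and -2.18 with 8-M-PDOT.

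**Figure D2:**
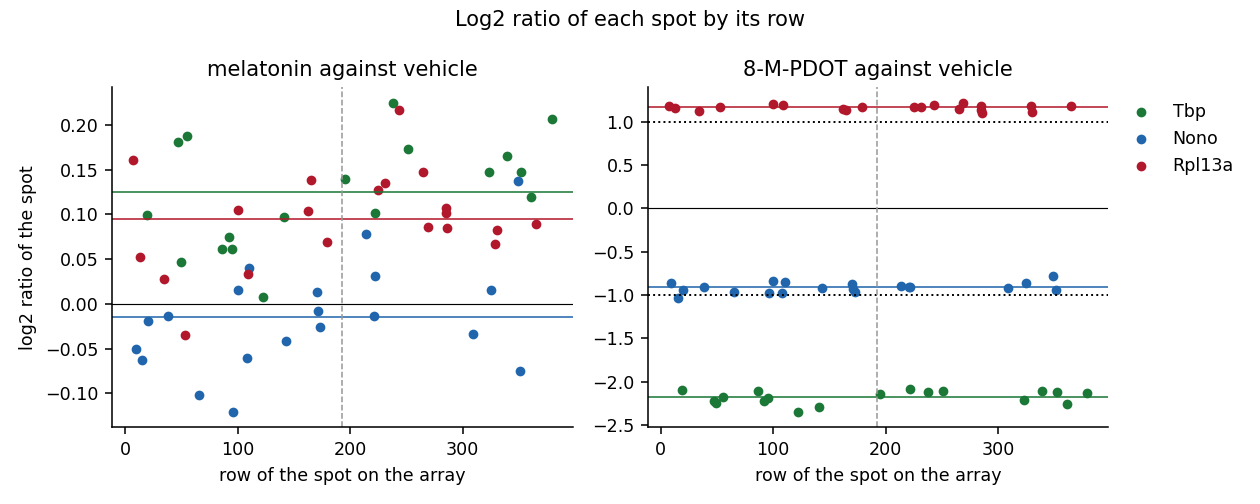
Log2 ratio of each spot (melatonin over vehicle, left, and 8-M-PDOT over vehicle, right) against the row of the spot on the array. Thin lines are the means of the genes, the dashed line follows row 192, dotted lines on the right mark 2-fold, and the vertical scales differ. On the right the 3 genes form separate bands near 1.16, -0.91 and -2.18 in upper and lower rows alike, while on the left their spots mix between -0.12 and 0.22.

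Set against all probes of the arrays, 0 of the 3 genes were past 2-fold with melatonin. In that comparison 2833 of 46504 measured probes lay past 2-fold on the higher side (6.09%) and 2390 on the lower side (5.14%). With the percentile scaling, Tbp, Nono and Rpl13a were nearer to the vehicle value than most probes. A smaller absolute log2 ratio was found for 22.1% of the measured probes in the case of Tbp, for 2.76% in that of Nono and for 17.2% in that of Rpl13a. The measured probes were not matched to the 3 genes in signal or in number of spots. The 3 genes are means over 18 or 20 spots, and with vehicle they stood at 3.33, 15.4 and 25.6 times the array's 75th percentile. What this adds to their nearness to vehicle was not tested. Quantile normalization put the 3 genes further from vehicle, at 0.21, 0.24 and 0.35, and such shares were not computed for it. The median log2 ratio was 0.09 over the 3 genes and -0.06 over all measured probes. Over the 43170 probes well above background on both arrays, as the 3 genes are, the shares past 2-fold were 5.71% higher and 4.88% lower.

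With 8-M-PDOT, 1 of the 3 genes (Rpl13a) was past 2-fold on the higher side and 1 (Tbp) on the lower side. Differences of this size were common on this array, with 8171 of 47822 measured probes past 2-fold on the higher side (17.1%) and 7545 on the lower side (15.8%). A count of 1 gene of 3 in each direction was not tested against these shares. Tbp lay far out in the distribution, with 1615 probes (3.38%) at a ratio as low or lower. For Rpl13a, 6865 probes (14.4%) were as high or higher, and for Nono, 8485 (17.7%) were as low or lower. The median log2 ratio was -0.04 over all measured probes. The median of the 3 genes, -0.91, is simply that of Nono, as Tbp and Rpl13a lay on opposite sides of it. Over the 41765 probes well above background on both arrays, the shares past 2-fold were 15.1% higher and 16.6% lower.

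**Figure D3:**
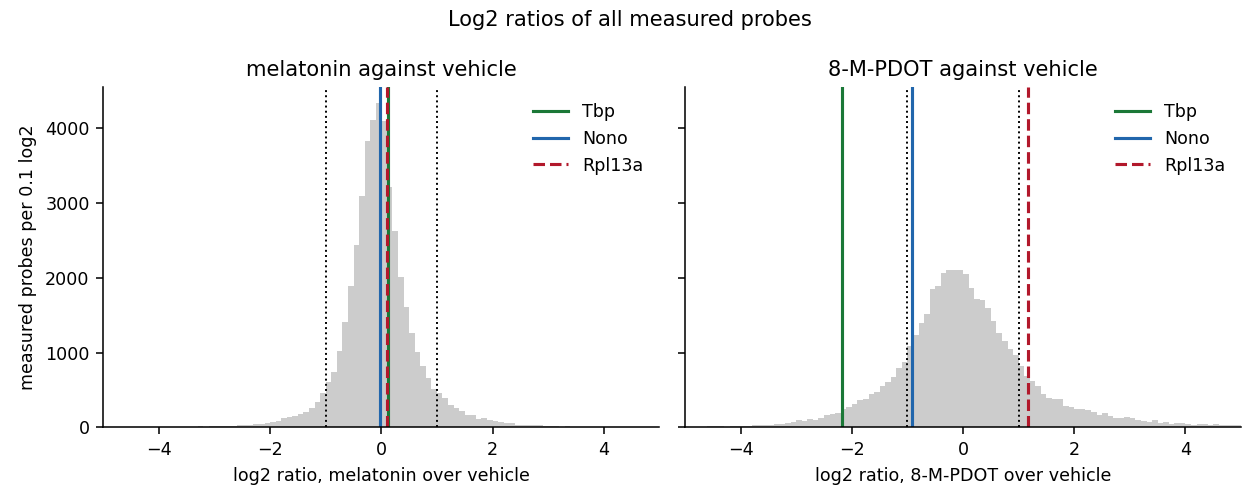
Number of measured probes by log2 ratio, in steps of 0.1, for melatonin over vehicle (left) and 8-M-PDOT over vehicle (right). Coloured lines mark Tbp, Nono and Rpl13a (dashed) and dotted lines mark 2-fold. The 3 lines stand near 0 on the left, and on the right they stand at -2.18, -0.91 and 1.16.

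In the value table deposited by the authors, the order of the 3 genes was the same with 8-M-PDOT and another one with melatonin. Its log2 values for Tbp were 10.57 with melatonin, 8.24 with 8-M-PDOT and 10.36 with vehicle. For Nono they were 12.71, 11.84 and 12.47, and for Rpl13a 13.56, 14.49 and 13.21, in the same sequence of arrays. In this table Tbp differed from vehicle by 0.22 with melatonin and -2.12 with 8-M-PDOT, Nono by 0.24 and -0.63, and Rpl13a by 0.35 and 1.28. The melatonin differences of all 3 genes were thus above 0 in the authors' table, where the percentile scaling put Nono at -0.01. The column medians of the table were the same (6.27), and how it was normalized is not stated by the sources here. Quantile normalization of the processed signal gave nearly the same differences for Tbp, Nono and Rpl13a. They were 0.21, 0.24 and 0.35 with melatonin and -2.12, -0.62 and 1.28 with 8-M-PDOT. The authors' table is therefore hardly a separate setting from that alternative.

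**Figure D4:**
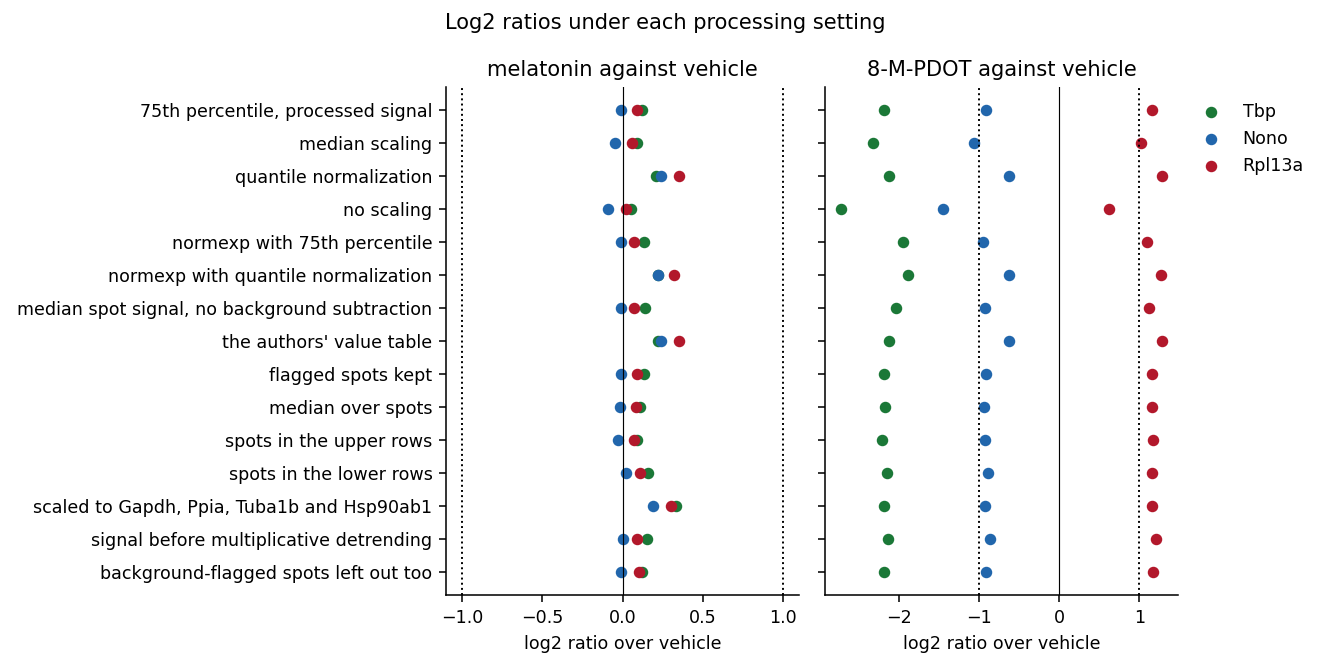
Log2 ratios of the 3 genes against vehicle (melatonin left, 8-M-PDOT right) under the percentile scaling, in the top row, and 14 alternatives. Dotted lines mark 2-fold and the horizontal scales differ. With 8-M-PDOT, Tbp stayed past 2-fold in all 14 (-2.72 to -1.89), Rpl13a in 13 (0.62 without scaling) and Nono in 2.

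The other 12 genes named by accession show which patterns were near those of the 3 genes. Nearness was taken as the Euclidean distance between the pairs of log2 ratios (melatonin and 8-M-PDOT, each against vehicle), over 3 arrays. Nearest to Tbp was Hprt, a gene of purine salvage, at a distance of 0.80, with log2 ratios of -0.67 with melatonin and -2.21 with 8-M-PDOT. Hprt and Tbp thus had like ratios with 8-M-PDOT and parted with melatonin, where Tbp stood at 0.12. Next came Ldhal6b, a lactate dehydrogenase-like gene, at a distance of 1.45. Ldhal6b was also nearest to Nono, at 0.55, with ratios of -0.57 and -0.90, but it is a near-copy of other genes and its probe was dim, with an SD of 0.23 over 14 spots in the second ratio. The next gene after it was Gapdh of glycolysis, at 0.89. Nearest to Rpl13a were Gk, glycerol kinase, at 0.91 with ratios of -0.30 and 0.34, and cytoskeletal Actb at 0.96 with 0.58 and 2.00. Tbp and Rpl13a were 3.34 apart. Of the 12 other genes, only Actb (4.20) and B2m (5.60) lay further than that from Tbp. Only Hprt (3.46) lay further than that from Rpl13a. Nono lay at 1.27 from Tbp, nearer to it than Ldhal6b though not than Hprt, and at 2.08 from Rpl13a.

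**Figure D5:**
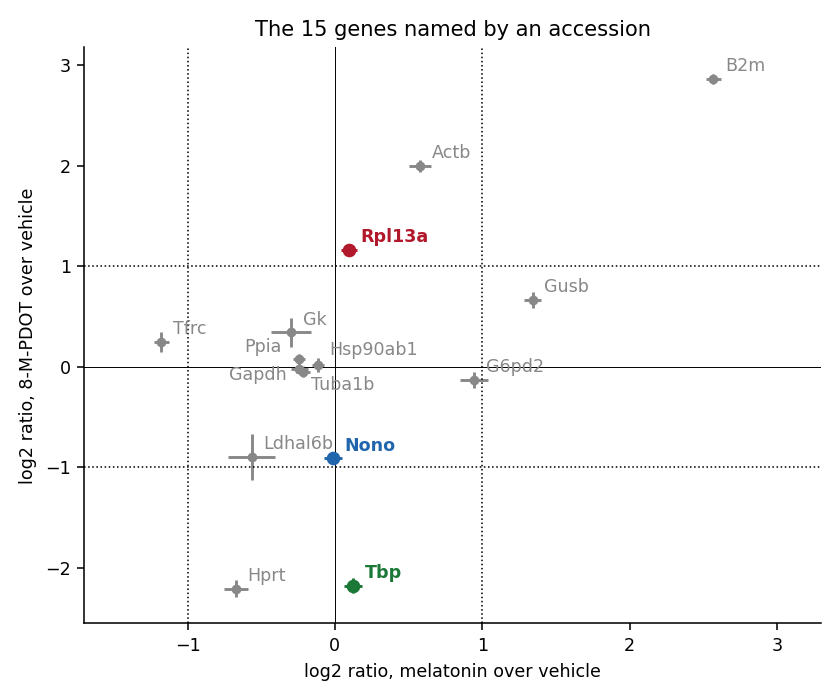
Log2 ratio against vehicle with melatonin (horizontal axis) and with 8-M-PDOT (vertical axis) for the 15 genes named by accession. Points are means over spots with bars of 1 SD, and dotted lines mark 2-fold. Tbp, Nono and Rpl13a stand in a column near 0 on the horizontal axis, at -2.18, -0.91 and 1.16 on the vertical one. Both axes share the vehicle array.

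Of the lists of related genes, 1 of 15 general transcription factors and RNA polymerase subunits (Tbp), 1 of 8 paraspeckle and DBHS genes (Nono) and 1 of 14 ribosomal protein and elongation factor genes (Rpl13a) is named in the files. The other 14, 7 and 13 genes were not analysed here, so each of the 3 genes stands alone for its step. Nothing measured here shows whether their partners, such as Sfpq for Nono, differed in the same way. Among the 12 other named genes, 2 were past 2-fold on the higher side and 1 on the lower side with melatonin. With 8-M-PDOT the numbers were also 2 and 1, but the genes were partly different ones. Over all measured probes the shares were 6.09% and 5.14% with melatonin and 17.1% and 15.8% with 8-M-PDOT, higher side first.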

How the data were processed

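Total RNA of each culture was labelled with Cy3 and read on 1 single-colour Arraystar array, per the labels. The scanner files deposited by the authors hold an intensity per spot, and the submitters' processing notes name Agilent Feature Extraction 11.0.1.1. Other columns deposited by the authors are flags of 0 or 1. Per the file headers, a multiplicative detrending fit was made on the treated arrays and not on the vehicle array. The authors also deposited a table of log2 values, and its normalization method is not stated by the sources here. The random variance model and paired t-test of the series design need replicates and were not run.

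From these files, log2 processed signals were averaged over the spots of a probe, leaving out spots with a feature outlier flag on any array, and the 75th percentile over 60846 study probes was subtracted. A probe was measured when well above background on at least 1 array compared, and dimmer values were raised to the lowest such signal (15.7, 14.4 and 19.3 units for melatonin, 8-M-PDOT and vehicle). The threshold was 2-fold. The number of arrays limits the precision. Alternatives included normexp modelling (limma 3.58.1, R 4.3.3, offset 50), quantile normalization and other scalings, in Python 3.11.15. The named genes were the 3 genes in full and, for each, the 2 nearest other named genes; B2m was singled out after its values were seen, and Ppia, Tuba1b and Hsp90ab1 are named only as scaling genes. Genes, lists and tests were chosen with earlier results of these data known. Accessions were matched without version to RefSeq (GRCm38.p6), which named all 15. The array grid names another build, so gene coordinates are not given and promoter coordinates are those of the RefSeq table.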

Additional observations from a re-analysis of the deposited data

How the results depend on the processing

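No paired analysis was possible because there is a single array per condition, which also left no array to leave out. The scaling to single genes of the 3, the signal before detrending and the stricter flags were chosen after seeing the data. Each of the 6 log2 ratios was recomputed under 14 alternatives and counted as moved when it differed by more than the SD over spots, a technical spread. No ratio past 2-fold turned its sign. All spots used for the 3 genes were well above background, but the treatment of the background moved some of their ratios, given below. Median scaling and quantile normalization moved the median log2 ratio of all probes with 8-M-PDOT by -0.14 and -0.16, and scaling to Gapdh, Ppia, Tuba1b and Hsp90ab1 moved that with melatonin by 0.20.

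Moved values follow for Tbp, Nono and Rpl13a in that order. With melatonin (0.12, -0.01 and 0.09), quantile normalization gave 0.21, 0.24 and 0.35, normexp with quantile normalization 0.22, 0.22 and 0.32, the table from the authors values of 0.22, 0.24 and 0.35, the 4 genes 0.33, 0.19 and 0.30, and no scaling 0.05, -0.09 and 0.02. With 8-M-PDOT (-2.18, -0.91 and 1.16), median scaling gave -2.32, -1.06 and 1.02, no scaling -2.72, -1.45 and 0.62, and normexp with quantile normalization -1.89, -0.62 and 1.27. Percentile scaling after normexp put Tbp at -1.95, and it stood at -2.03 on the median spot signal. Nono was -0.62 after quantile normalization and -0.63 in the authors' table. Rpl13a was 1.28 in both of these, 1.09 with percentile scaling after normexp, 1.12 on the median spot signal and 1.21 before multiplicative detrending.

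Counts of probes at least 2-fold higher and lower moved as well. For melatonin (2833 and 2390), percentile scaling after normexp gave 1371 and 1370, quantile normalization after it 1361 and 1115, and no filter on dim probes 4380 and 3719. For 8-M-PDOT (8171 and 7545), quantile normalization after normexp yielded 5109 and 4891, and percentile scaling after normexp 5568 and 4973. The higher count was also the larger one with no filter on dim probes (10904 and 9229). The lower count was the larger one with median scaling (7027 and 9118), quantile normalization (7529 and 8359) and the authors' table (7526 and 8289). It was so too over probes well above background on both arrays (6318 and 6927). Scaling to Tbp gave 41783 and 405, to Nono 21194 and 2359, and to Rpl13a 2946 and 28146. The cause of the moves with normexp was not tested, while those with single genes follow from a constant shift.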

Other observations

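Tbp and Rpl13a are often used to normalise other genes, and the choice among the 3 genes set how the 12 other named genes read with 8-M-PDOT. Relative to Tbp, 11 of the 12 were at least 2-fold higher than vehicle and 0 lower, with Hprt alone near no difference (-0.03 on the log2 scale) and a median of 2.22. Relative to Rpl13a, 1 was higher (B2m, the light chain of MHC class I, at 1.70) and 7 were lower, with a median of -1.12. Relative to Nono, 5 were higher and 1 lower, with a median of 0.96. With the 75th percentile, 2 were higher and 1 lower, with a median of 0.04. With melatonin, each of the 4 scalings gave 2 higher and 1 lower among the 12 genes. Over all measured probes the melatonin counts did change, from 2833 higher and 2390 lower with the percentile. They were 2268 and 3162 relative to Tbp, 2902 and 2325 relative to Nono, and 2405 and 2965 relative to Rpl13a. These shifts follow from the ratios of the 3 genes themselves, since each scaling moves all ratios of an array by a constant. This set of scalings was chosen after the values were seen.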
